A study of Mus musculus with 35 samples.

Results

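The genes described are the Wnt ligands, their receptors and the secreted proteins that modulate them, in mouse brown and white fat. They were taken by name: all mouse symbols that begin with Wnt, Fzd, Sfrp, Dkk or Rspo followed by a digit, with Lrp5, Lrp6, Frzb and Wif1. The rule found 41 genes among the 18947 of the mRNA comparison, and Dkk4, Rspo4os, Wnt3a, Wnt7a and Wnt8a were not analysed here. The mRNA samples were 4 libraries of brown fat from between the shoulder blades (interscapular, iBAT) and 4 of white fat from around the epididymis (epididymal, eWAT). Both depots came from untreated C57BL/6J males at 15 weeks of age and were flash frozen whole. The series also holds 18 miRNA and 9 Argonaute HITS-CLIP samples, which were not used here. The mRNA file gives the authors' comparison of the depots and no value per library, so no spread between libraries can be shown, and no label states that the libraries came from separate animals.

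Wnt proteins are lipid-modified signals that act over short distances. They bind Frizzled receptors, alone or together with the coreceptors Lrp5 and Lrp6, and in the canonical branch this stabilises beta-catenin, which then acts with Tcf and Lef factors on target genes. R-spondins keep Frizzled receptors at the surface by engaging Lgr receptors and the ubiquitin ligases Rnf43 and Znrf3, while Sfrp proteins, Frzb and Wif1 bind Wnts outside the cell and Dkk1 blocks Lrp5 and Lrp6. In fat, canonical Wnt signals are known to hold back the conversion of precursor cells into adipocytes, and Sfrp5 is known as a secreted product of white fat.

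Of the 41 genes, the authors' deposited table had 18 lower in iBAT than in eWAT, 5 higher and 18 not called at an adjusted p under 0.05. The 5 higher genes were the ligand Wnt11, the receptors Fzd7, Fzd8 and Fzd9, and the R-spondin Rspo4. The 18 lower genes included 4 of the 5 genes of the Sfrp family with Frzb. At base means above the median of all genes, the largest fold changes of the 41 were those of Rspo1 and Sfrp5. Over all 18947 genes the authors' deposited table called 48.0%, with 20.9% higher and 27.1% lower in iBAT. Against this, 56.1% of the Wnt-system genes were called, 12.2% higher and 43.9% lower. Their median log2 fold change was -0.73 and that of all genes -0.10. When a log2 fold change of at least 1 in size was also required, 2 Wnt-system genes were higher and 17 lower, beside 11.0% higher and 19.5% lower over all genes. With p computed from fold change over its standard error, 5 were higher and 16 lower, beside 42.8% of all genes called in either direction. No test of the list against other genes was made. A log2 fold change here is iBAT over eWAT with its standard error (SE), and the base mean is the authors' mean normalized count over all libraries. The direction is not in the file header and was read from Ucp1, Cidea, Lep and Wt1, so these 4 genes say nothing further about it.

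**Figure D1:**
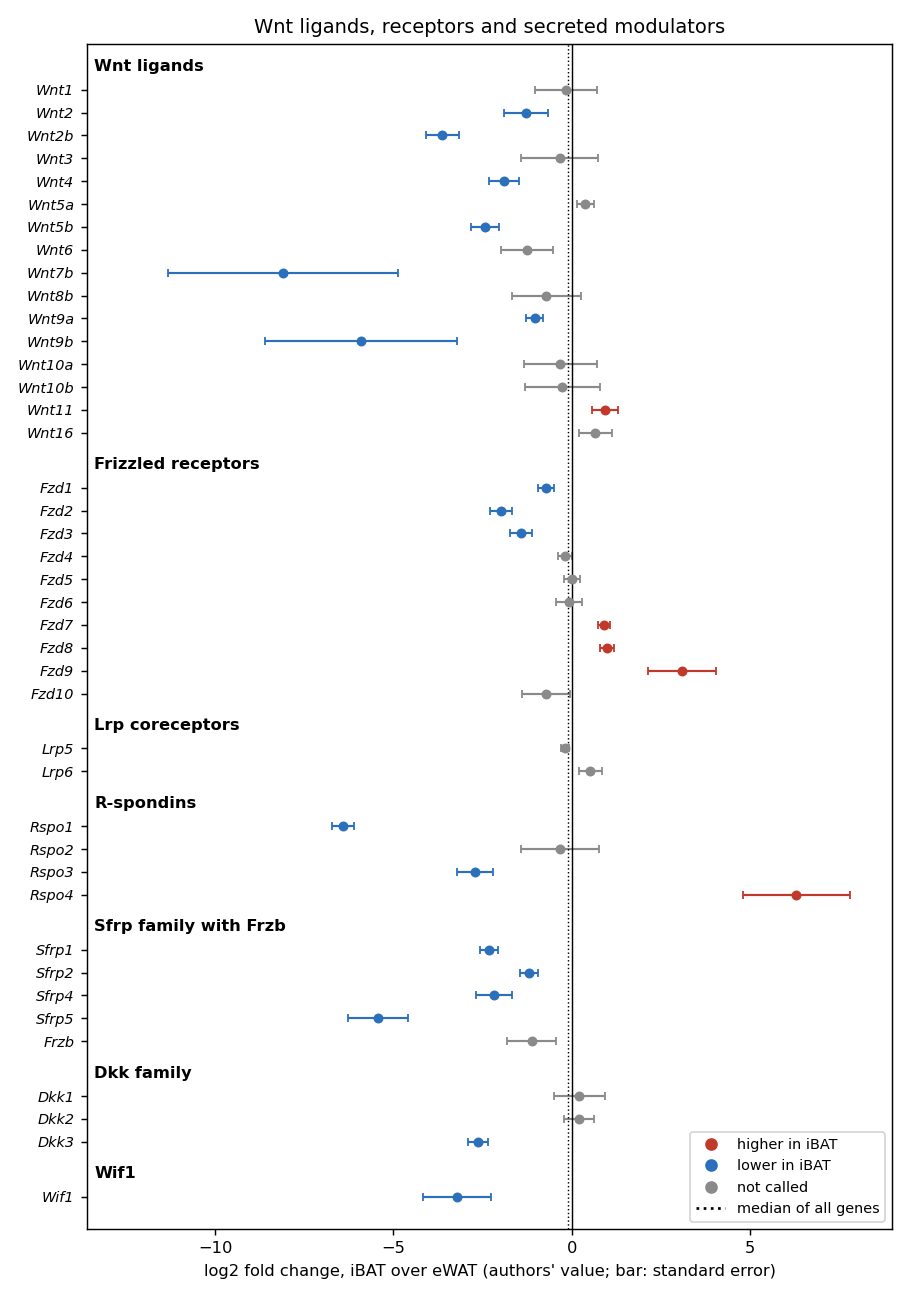
Log2 fold change of iBAT over eWAT on the horizontal axis for each of the 41 genes, grouped by role; points are the authors' values, bars their standard errors and the dotted line the median of all genes. The Sfrp family lies left of 0 throughout, Frizzled genes lie on both sides, and Wnt7b and Wnt9b have the widest bars, with an SE of 3.23 and 2.69.

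Both depots held cells other than adipocytes, and their markers moved with the comparison. All values of this paragraph are log2 fold changes, iBAT over eWAT, from the authors' deposited table. The brown adipocyte, white adipocyte and mesothelial counts include Ucp1, Cidea, Lep and Wt1, from which the direction was read. Brown adipocyte markers were higher in iBAT in 8 of 8 cases (Ucp1 15.87 ± 0.90, Cidea 9.58 ± 0.13, the authors' deposited table) and white adipocyte markers lower in 6 of 6 (Nnat -4.10 ± 0.51, Lep -2.77 ± 0.84). Mesothelial markers were lower in 11 of 11 analysed cases (Upk3b -13.53 ± 1.34, Krt8 -15.22 ± 3.51, the authors' deposited table), with a median of -9.37. Epididymal markers were lower in 6 of 8 cases (Crisp1 -14.34 ± 1.72, Lcn5 -17.81 ± 4.24, the authors' deposited table). Those of skeletal muscle were higher in 12 of 12 (Myh4 17.69 ± 1.36, Acta1 5.06 ± 0.31, the authors' deposited table) and Schwann cell markers in 6 of 6 (S100b 5.67 ± 0.35, Mbp 1.22 ± 0.11). Fibroblast and progenitor markers were lower in 12 of 12 (Dcn -2.18 ± 0.16, Col3a1 -0.78 ± 0.17, the authors' deposited table), with a median of -1.04, and macrophage markers in 6 of 6 (Lyz2 -2.36 ± 0.27, C1qa -2.56 ± 0.31). Markers shared by both kinds of adipocyte were lower in 4 of 6 cases (Fabp4 -0.74 ± 0.34, Adipoq -1.48 ± 0.28, the authors' deposited table). Endothelial markers were split, 2 higher and 4 lower of 8 (Cdh5 0.30 ± 0.18, not called, and Pecam1 -0.36 ± 0.15, the authors' deposited table). The markers of smooth muscle and pericytes were split as well, 2 higher and 4 lower of 7 (Rgs5 1.40 ± 0.18, Myh11 -2.79 ± 0.81, the authors' deposited table). The part of these cells in the values of the Wnt-system genes was not tested. In whole fat, fewer cells of a type and less RNA per cell cannot be told apart.

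**Figure D2:**
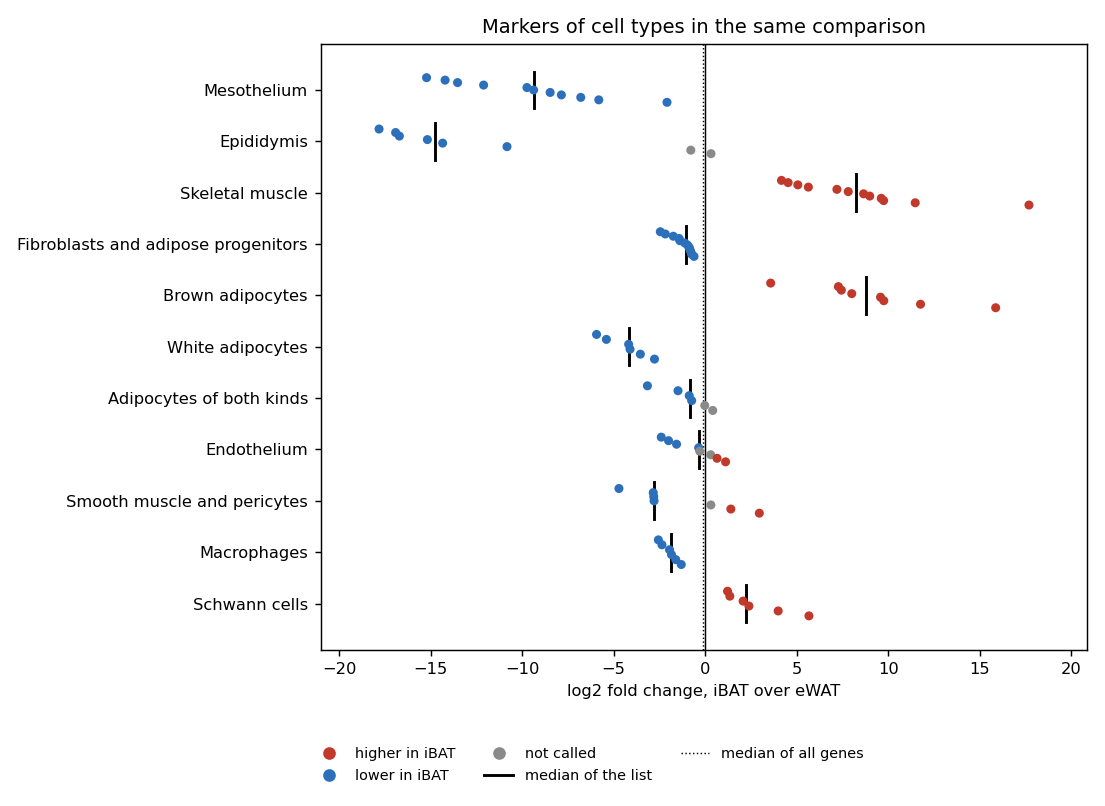
Log2 fold change of iBAT over eWAT on the horizontal axis for the markers of 11 cell types; each point is a gene, the thick bar is the median of its list and the dotted line the median of all genes. By their medians the mesothelial and epididymal lists lie furthest left and the brown adipocyte and skeletal muscle lists furthest right, while single genes of the lists overlap.

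The promoters of 2 genes lower in iBAT, Rspo1 and Sfrp5, and 2 higher, Fzd9 and Wnt11, are shown as examples of each direction. They have the largest called fold changes among genes with a base mean of at least 20 and an entry in the RefSeq promoter table (GRCm38.p6) of which at most 30 bases before the start lie inside the annotated gene. That last condition left out Rspo4, whose fold change is larger, and Wnt7b is not printed. Wnt11 is a weaker example, with a log2 fold change under 1 and a call lost at an adjusted p under 0.01. Each line gives the 250 bases before the annotated start, 5′ to 3′ on the strand of the gene, with CpG dinucleotides in capitals.
Rspo1 (chr4:124986180-124986429, plus strand): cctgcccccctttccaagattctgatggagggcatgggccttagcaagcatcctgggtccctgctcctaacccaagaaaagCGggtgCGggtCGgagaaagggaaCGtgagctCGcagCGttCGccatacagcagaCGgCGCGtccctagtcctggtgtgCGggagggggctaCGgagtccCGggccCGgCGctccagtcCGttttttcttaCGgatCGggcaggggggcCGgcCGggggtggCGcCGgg
Sfrp5 (chr19:42202253-42202502, minus strand): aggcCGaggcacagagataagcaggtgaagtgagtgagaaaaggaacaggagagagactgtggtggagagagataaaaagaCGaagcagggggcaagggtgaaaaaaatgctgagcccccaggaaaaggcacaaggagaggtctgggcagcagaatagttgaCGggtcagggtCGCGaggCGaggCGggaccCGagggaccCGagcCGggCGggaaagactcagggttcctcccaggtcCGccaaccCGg
Fzd9 (chr5:135251048-135251297, minus strand): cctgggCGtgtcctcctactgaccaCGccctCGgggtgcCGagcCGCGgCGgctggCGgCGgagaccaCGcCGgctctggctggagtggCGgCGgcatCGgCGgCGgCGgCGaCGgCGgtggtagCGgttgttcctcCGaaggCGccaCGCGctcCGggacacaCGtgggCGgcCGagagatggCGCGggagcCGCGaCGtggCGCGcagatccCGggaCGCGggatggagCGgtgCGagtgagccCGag
Wnt11 (chr7:98834862-98835111, plus strand): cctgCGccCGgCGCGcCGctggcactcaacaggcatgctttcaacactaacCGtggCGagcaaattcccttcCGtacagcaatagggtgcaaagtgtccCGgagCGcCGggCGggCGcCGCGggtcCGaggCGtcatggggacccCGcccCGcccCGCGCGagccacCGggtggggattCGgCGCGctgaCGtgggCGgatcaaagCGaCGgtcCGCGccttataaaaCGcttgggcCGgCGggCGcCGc
The stretches held 22 CpGs in Rspo1 and 13 in Sfrp5, the genes lower in iBAT, and 42 in Fzd9 and 37 in Wnt11, the genes higher in iBAT. Over all matched genes the groups overlapped. In windows of 300 bases that reach 50 bases past the start, CpGs ranged from 23 to 53 over 5 promoters of higher genes (median 31) and from 4 to 58 over 13 promoters of lower genes (median 27). The 12 promoters of genes not called had a median of 22. In all, 30 promoters of 27 Wnt-system genes matched the table, with a median of 25.5 CpGs against 7 over all 32851 promoters, and 27 of the 30 were above that value.

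Short motifs were searched for on both strands of the same 300-base windows. The letters CTTTGAT, a form of the site that Tcf and Lef factors bind, were found in 1 promoter each of Wnt11, on the minus strand of the stretch printed above, and Wnt5b, and in 3.73% of all promoters. CTTTGTT, a related form for which no match counts as both, was found in Fzd7, Wnt3 and Dkk1, and in 5.85% of all promoters. The GC box GGGCGG, bound by Sp factors, was found in 22 of the 30 promoters, those printed for Sfrp5, Fzd9 and Wnt11 among them, and in 35.7% of all. TATAAA was found in 5 of the 30, Wnt11 among them, and in 13.6% of all. A match describes letters only.

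Among the 16 Wnt ligands, 7 were lower in iBAT, 1 was higher and 8 were not called by the authors' deposited table. That is 43.8% lower and 6.25% higher, beside 27.1% and 20.9% of all genes. The ligands had a median log2 fold change of -0.87. Wnt2b (ENSMUSG00000027840, GRCm38.p6 chromosome 3, 104944805 to 104961709), a ligand of the canonical branch, had the smallest adjusted p of the ligands. The authors' deposited table gives -3.63 ± 0.47 for Wnt2b, with an adjusted p of 9.82e-15 and a base mean of 230.2. When the base mean is read as the mean of equally many iBAT and eWAT libraries and the fold change as the ratio of their means, it implies 34.4 normalized counts in iBAT and 426.1 in eWAT. Such depot means are computed from the authors' deposited table, and no value per library stands behind them. Whether the deposited fold changes were shrunken is not stated, and if they were, the implied means would not be true depot means. Wnt5b, known chiefly as a non-canonical ligand, was lower at -2.43 ± 0.40 (adjusted p = 2.18e-09, the authors' deposited table), with implied means of 31.8 in iBAT and 171.3 in eWAT. Wnt4, a ligand of kidney and gonad development, was lower at -1.91 ± 0.42 (adjusted p = 6.96e-06, the authors' deposited table), with implied means of 54.0 in iBAT and 202.5 in eWAT. Wnt9a, a ligand of joint development, had the smallest fold of the 7, -1.04 ± 0.23 (adjusted p = 2.38e-05, the authors' deposited table), with implied means of 93.6 in iBAT and 192.0 in eWAT. Wnt2, a ligand of lung development, had the highest adjusted p of the called genes, at -1.29 ± 0.62 (adjusted p = 0.0292, base mean 23.3, the authors' deposited table).

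Wnt7b and Wnt9b, ligands known from lung and kidney development, had the largest fold changes of the ligands and the widest errors. Wnt7b was lower at -8.10 ± 3.23 (adjusted p = 7.17e-05, base mean 21.8, the authors' deposited table). Of 295 genes with a base mean within 1.1-fold of that of Wnt7b, 8 had a lower fold change and the lowest was -8.51, so it lay near the lower edge of the values at its level. Wnt9b was lower at -5.91 ± 2.69 (adjusted p = 0.000234, base mean 5.47, the authors' deposited table). Of 266 genes of like base mean, 1 lay lower, at -5.98. No bound on the fold can be given for either gene without the values of the libraries. When p was computed from fold change over SE, Wnt9b and Wnt2 lost their call. That ratio was smaller than the z value of the deposited p in 98.7% of genes. At base means under 10 its median was 0.491 of that z value, so this p is stricter for most genes with few counts.

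Wnt11, a non-canonical ligand that directs cell movement, was the one ligand called higher in iBAT, at 0.93 ± 0.36 (adjusted p = 0.0135, the authors' deposited table). Its implied means were 374.2 normalized counts in iBAT and 196.5 in eWAT. Wnt5a, the best known non-canonical ligand and one that Sfrp5 is known to bind, was not called, at 0.38 ± 0.24 (adjusted p = 0.176, base mean 917.7, the authors' deposited table). It had the highest base mean of the ligands, and its close relative Wnt5b was lower in iBAT, but the difference between their fold changes was not tested. Wnt6 lay just outside the threshold at -1.24 ± 0.73 (adjusted p = 0.0595, the authors' deposited table). Wnt16, a ligand of bone, stood at 0.67 ± 0.45 (adjusted p = 0.168, the authors' deposited table).

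The remaining uncalled ligands were Wnt1, Wnt3, Wnt8b, Wnt10a and Wnt10b, whose base means ran from 0.99 for Wnt10b to 4.62 for Wnt8b (the authors' deposited table). Wnt10b, the ligand best known for restraining adipogenesis in mice, stood at -0.26 ± 1.06 (adjusted p = 0.483, the authors' deposited table), an error too wide to detect a difference of that size. In the genome Wnt10b lies beside Wnt1 on chromosome 15, with 11650 bases between them, and Wnt6 beside Wnt10a on chromosome 1, with 6696 bases between them. Wnt9b and Wnt3 on chromosome 11 overlap by 1098 bases in the RefSeq annotation of GRCm38.p6, and reads from the shared stretch could be assigned to either.

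**Figure D3:**
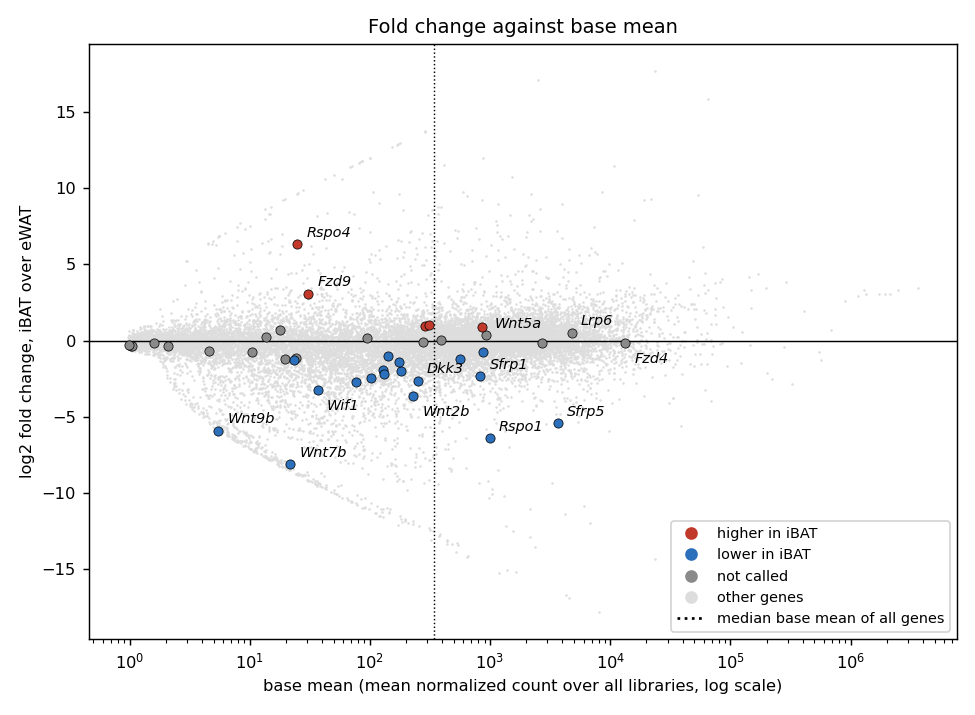
Log2 fold change of iBAT over eWAT (vertical axis) against base mean (horizontal axis, log scale) for all 18947 genes, with the 41 Wnt-system genes in colour. Wnt7b and Wnt9b lie on the lower edge of the cloud, Rspo1 and Sfrp5 lie low at base means of 991.4 and 3667, and Fzd4, Lrp5 and Lrp6 lie between -0.18 and 0.53 at high base means.

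Of the 10 Frizzled receptor genes, 3 were higher in iBAT, 3 lower and 4 without a call by the authors' deposited table. Calls in both directions were common in this comparison, with 20.9% of all genes higher and 27.1% lower. Fzd9 was higher at 3.08 ± 0.95 (adjusted p = 0.000353, the authors' deposited table), with implied means of 55.1 normalized counts in iBAT and 6.50 in eWAT. Fzd8 was higher at 0.99 ± 0.19 (adjusted p = 7.06e-07, the authors' deposited table), with implied means of 416.9 in iBAT and 209.4 in eWAT. Fzd7 was higher at 0.91 ± 0.17 (adjusted p = 5.01e-07, the authors' deposited table), with implied means of 1107 in iBAT and 590.5 in eWAT. Fzd7 belongs with Fzd1 and Fzd2 to a subfamily of closely related proteins, whose members were called in both directions. Fzd2 was lower at -1.98 ± 0.30 (adjusted p = 1.04e-10, the authors' deposited table), with implied means of 73.5 in iBAT and 290.1 in eWAT. Fzd1 was lower at -0.73 ± 0.23 (adjusted p = 0.00338, the authors' deposited table), with implied means of 655.6 in iBAT and 1085 in eWAT.

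Fzd3 and Fzd6, receptors known for their part in tissue polarity, had a call for the one and none for the other. Fzd3 was lower at -1.43 ± 0.31 (adjusted p = 5.32e-06, the authors' deposited table), with implied means of 95.5 in iBAT and 257.0 in eWAT. Fzd6 stood at -0.07 ± 0.36 (adjusted p = 0.882, the authors' deposited table). Fzd5, the close relative of Fzd8, stood at 0.01 ± 0.23 (adjusted p = 0.989, the authors' deposited table). Fzd10, a relative of Fzd9, had a base mean of 10.5 and stood at -0.73 ± 0.68 (adjusted p = 0.26, the authors' deposited table). None of these differences between relatives was tested.

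Fzd4, the receptor of Norrin in blood vessels as well as of Wnts, had the highest base mean of the 41 genes, 13356, and was not called at -0.18 ± 0.20 (adjusted p = 0.472, the authors' deposited table). Base means are not corrected for transcript length, so they do not rank expression between genes. Tspan12, which assists Norrin signalling through Fzd4, was higher in iBAT at 0.62 ± 0.16 (adjusted p = 0.000284, the authors' deposited table). Ndp, the gene of Norrin, had a base mean of 2.37 and stood at -0.36 ± 0.87 (adjusted p = 0.585, the authors' deposited table). Both were chosen after their values were seen. Of the coreceptors, Lrp5 stood at -0.18 ± 0.11 (adjusted p = 0.148, base mean 2699, the authors' deposited table). Lrp6 stood at 0.53 ± 0.32 (adjusted p = 0.137, base mean 4769, the authors' deposited table). Neither was called at an unadjusted p under 0.05 either, which does not show that the coreceptors were equal in both depots.

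R-spondins were called in both directions, 2 of 4 lower in iBAT and 1 higher by the authors' deposited table. Of all genes 27.1% were lower and 20.9% higher. Rspo1 (ENSMUSG00000028871, GRCm38.p6 chromosome 4, 124986401 to 125009102) had the smallest adjusted p among the 41 genes, and its promoter is printed above. The authors' deposited table gives -6.41 ± 0.30 for Rspo1, with an adjusted p of 8.39e-98 and a base mean of 991.4. Its implied means were 23.0 normalized counts in iBAT and 1960 in eWAT. Rspo1 was lower together with the mesothelial markers given above, 11 of 11 of which were lower in iBAT. White adipocyte, fibroblast, macrophage and most epididymal markers were lower too. The part of these cells in the value of Rspo1 was not tested. Rspo3, an R-spondin of blood vessel growth, was lower at -2.71 ± 0.51 (adjusted p = 1.02e-07, the authors' deposited table), with implied means of 20.1 in iBAT and 132.0 in eWAT. Rspo2 had a base mean of 2.07 and stood at -0.33 ± 1.09 (adjusted p = 0.289, the authors' deposited table).

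Rspo4, an R-spondin whose loss in humans causes absent nails, moved in the opposite direction to Rspo1 and Rspo3. Rspo4 (ENSMUSG00000032852, GRCm38.p6 chromosome 2, 151842647 to 151874668) was higher in iBAT at 6.31 ± 1.51 (adjusted p = 1.13e-05, base mean 24.9, the authors' deposited table). Of 277 genes with a base mean within 1.1-fold of it, 2 had a higher fold change. The symbol Rspo4os names an antisense RNA of Rspo4. No gene was found to overlap Rspo4 in the RefSeq annotation used here, and the strand setting of the counting is not known. Whether Rspo4 and Rspo4os shared reads was not tested.

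The Lgr receptors of the R-spondins had a call for Lgr6 alone. Lgr6 was higher in iBAT at 8.23 ± 0.26 (adjusted p = 1.26e-209, base mean 2100.5, the authors' deposited table). Lgr4 stood at -0.20 ± 0.19 (adjusted p = 0.387, the authors' deposited table) and Lgr5 at -0.83 ± 0.76 (adjusted p = 0.216). Rnf43, a ubiquitin ligase that removes Frizzled receptors, was lower at -3.77 ± 0.78 (adjusted p = 4.28e-07, the authors' deposited table). Its relative Znrf3 stood at 0.64 ± 0.37 (adjusted p = 0.111, the authors' deposited table). Lgr4, Lgr5 and Znrf3 were chosen to complete the groups after their values were seen.

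Secreted antagonists of the Sfrp family, Frzb included, were lower in iBAT in 4 of 5 cases by the authors' deposited table. Over all genes 27.1% were lower and 20.9% higher. The family had a median of -2.17 on the log2 scale. All 5 deposited fold changes were below 0, so no choice of p could call any of the 5 higher. Sfrp5 (ENSMUSG00000018822, GRCm38.p6 chromosome 19, 42197971 to 42202252) was lower at -5.43 ± 0.85 (adjusted p = 7.20e-11, base mean 3667, the authors' deposited table). Its implied means were 166.7 normalized counts in iBAT and 7167 in eWAT. Sfrp1, a Wnt-binding antagonist, was lower at -2.32 ± 0.24 (adjusted p = 2.39e-21, the authors' deposited table), with implied means of 277.6 in iBAT and 1387 in eWAT. Sfrp4, linked to insulin secretion in human studies, was lower at -2.17 ± 0.51 (adjusted p = 1.56e-05, the authors' deposited table), with implied means of 47.1 in iBAT and 212.8 in eWAT. Sfrp2, an antagonist made by fibroblasts, was lower at -1.19 ± 0.25 (adjusted p = 5.61e-06, the authors' deposited table), with implied means of 344.8 in iBAT and 787.4 in eWAT. Frzb, the cartilage antagonist also called Sfrp3, had the same sign and was not called, at -1.12 ± 0.69 (adjusted p = 0.0751, the authors' deposited table). Fibroblast and progenitor markers, lower in iBAT by a median of -1.04, moved in the same direction. So did macrophage (median -1.89), white adipocyte (-4.14), mesothelial (-9.37) and most epididymal markers. Brown adipocyte, skeletal muscle and Schwann cell markers were higher in iBAT. The part of these cells in the values of the Sfrp family was not tested.

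Wif1, which binds Wnts through its own kind of domain, was lower in iBAT at -3.23 ± 0.96 (adjusted p = 0.000222, the authors' deposited table), with implied means of 7.13 in iBAT and 66.7 in eWAT. Dkk3, the most divergent of the Dickkopf proteins, was lower at -2.63 ± 0.29 (adjusted p = 7.39e-19, the authors' deposited table), with implied means of 69.5 in iBAT and 429.2 in eWAT. The Lrp antagonist Dkk1 stood at 0.21 ± 0.71 (adjusted p = 0.762, base mean 13.5, the authors' deposited table). Dkk2, which also acts on the Lrp coreceptors, stood at 0.20 ± 0.42 (adjusted p = 0.699, base mean 94.7, the authors' deposited table).

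**Figure D4:**
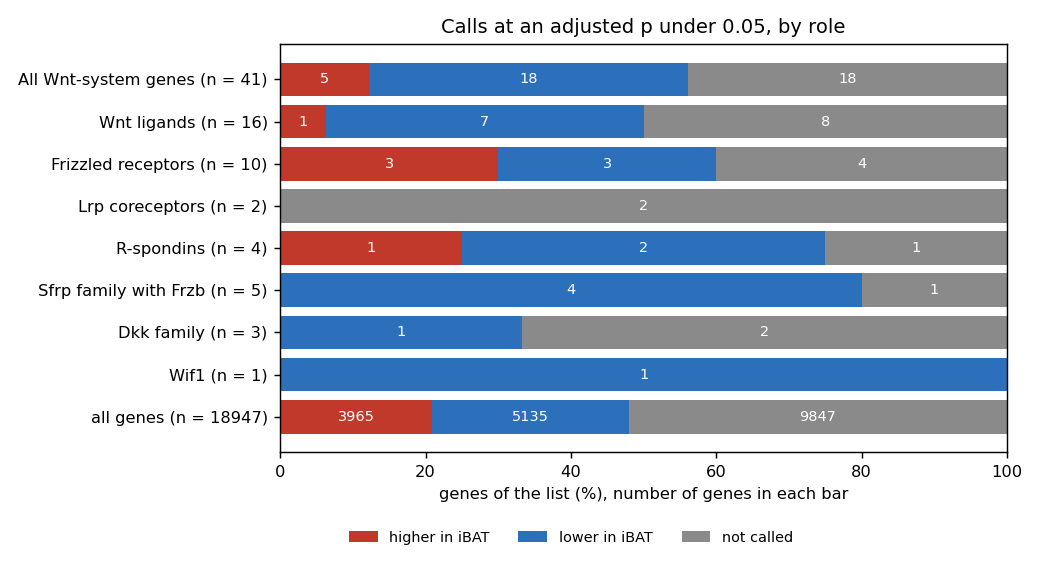
Share of genes (horizontal axis, %) called higher in iBAT, lower in iBAT or not called at an adjusted p under 0.05, by role, with the number of genes written in each bar and all genes in the lowest bar. The Sfrp family has 4 of 5 genes lower, Frizzled genes split 3 and 3, and neither Lrp coreceptor was called.

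Other genes of the pathway were followed through 6 lists that hold none of the 41 genes. Over their 83 distinct genes the authors' deposited table had 17 higher in iBAT, 26 lower and 40 without a call, which is 51.8% called beside 48.0% of all genes. Of the 4 genes that make, release or inactivate Wnt proteins, 3 were lower, beside 27.1% of all genes. Trabd2b, a protease that inactivates Wnts, was lower at -2.04 ± 0.24 (adjusted p = 1.93e-16, the authors' deposited table). Wls, which carries Wnts to the surface, was lower at -1.13 ± 0.21 (adjusted p = 1.59e-07, the authors' deposited table). Notum, which removes the lipid of Wnts, was lower at -4.22 ± 1.02 (adjusted p = 2.42e-05, the authors' deposited table). Porcn, which attaches that lipid, stood at -0.45 ± 0.27 (adjusted p = 0.149, the authors' deposited table) and was named after its value was seen.

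Of 19 surface partners and regulators of receptor turnover, 2 were higher in iBAT by the authors' deposited table, Lgr6 and Tspan12, and 6 lower. That is 10.5% higher and 31.6% lower, beside 20.9% and 27.1% of all genes. In all 42.1% were called, beside 48.0% of all genes, and the median of the list was -0.50. Apcdd1, a membrane inhibitor of Wnt signals, was lower at -2.74 ± 0.34 (adjusted p = 6.99e-16, the authors' deposited table). The receptor-like Ptk7 was lower at -2.41 ± 0.37 (adjusted p = 8.09e-11, the authors' deposited table). Ror1, a receptor of the non-canonical branch, was lower at -2.05 ± 0.32 (adjusted p = 3.43e-10, the authors' deposited table). Sost, the gene of the Lrp inhibitor sclerostin, was lower at -11.70 ± 3.76 (adjusted p = 9.98e-07, base mean 194.6, the authors' deposited table), and was chosen after its value was seen. Its implied means were 0.12 normalized counts in iBAT and 389.0 in eWAT. No bound on its fold can be given without the values of the libraries.

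Of 26 genes of the cytoplasmic relay, 11 were higher in iBAT and 5 lower by the authors' deposited table, with a median of 0.27, beside 20.9% higher and 27.1% lower over all genes. At a log2 fold change of at least 1 in size, 3 were higher and 4 lower. Over all genes 11.0% were higher and 19.5% lower at that size. Brown adipocyte, skeletal muscle and Schwann cell markers were higher in the same comparison, as given above, and their part in these counts was not tested. Frat1, which binds the kinase Gsk3, was higher at 2.00 ± 0.19 (adjusted p = 7.88e-25, the authors' deposited table). Gsk3a, a gene of that kinase, was higher at 1.14 ± 0.12 (adjusted p = 1.77e-21, the authors' deposited table). Dvl3, which relays the signal from Frizzled, was higher at 1.48 ± 0.24 (adjusted p = 1.88e-09, the authors' deposited table). Of the lower genes, all 4 named here bind Dishevelled proteins. The feedback inhibitors Nkd1 (-3.73 ± 0.32, adjusted p = 4.52e-31) and Nkd2 (-1.42 ± 0.34, adjusted p = 4.85e-05) were lower by the authors' deposited table. Dact1 (-1.71 ± 0.27, adjusted p = 3.78e-10) and Dact3 (-1.64 ± 0.33, adjusted p = 1.37e-06) were lower by the authors' deposited table too. Ctnnb1, the gene of beta-catenin, chosen after its value was seen, was called close to the threshold at 0.61 ± 0.28 (adjusted p = 0.0473, the authors' deposited table). When p was computed from fold change over SE, its adjusted p was 0.064.

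Of 15 nuclear effectors, 2 were higher in iBAT and 6 lower by the authors' deposited table, with a median of -0.25. That is 13.3% higher and 40.0% lower, beside 20.9% and 27.1% of all genes. The transcription factor gene Tcf7 was lower at -3.35 ± 0.70 (adjusted p = 9.02e-07, the authors' deposited table). Lef1, of the same family and like Tcf7 also expressed in T cells, was lower at -1.49 ± 0.56 (adjusted p = 0.00584, the authors' deposited table). Of 13 planar cell polarity genes 9 were not called, so 30.8% were called, beside 48.0% of all genes. The atypical cadherin Celsr3 was higher at 1.58 ± 0.38 (adjusted p = 4.57e-05, the authors' deposited table), and its relative Celsr1 lower at -2.58 ± 1.22 (adjusted p = 0.00678). When p came from fold change over SE, 2 polarity genes were higher and 0 lower, beside 42.8% of all genes called in either direction.

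Genes in wide use as readouts of beta-catenin signalling were lower in iBAT in 11 of 15 cases by the authors' deposited table. Over all genes 27.1% were lower and 20.9% higher. The readouts had a median of -1.77, and 9 of the 15 also stand in the lists above. None of the readouts was higher, also at an unadjusted p under 0.05 (0 of 15) or when p came from fold change over SE (0 of 15). Only Znrf3, at 0.64 ± 0.37, had a fold change above 0, so no other readout could be called higher at any p. Over all 18947 genes, 4429 were higher at an unadjusted p under 0.05 and 3673 with p from fold change over SE. The lower genes included Nkd1 and Apcdd1, given above. Ccn5, a secreted matricellular protein, was lower at -3.68 ± 0.41 (adjusted p = 3.14e-19, the authors' deposited table). The cell cycle gene Ccnd1 was lower at -1.77 ± 0.33 (adjusted p = 1.06e-07, the authors' deposited table). Axin2, a negative regulator in wide use as a readout, chosen after its value was seen, was lower at -0.56 ± 0.16 (adjusted p = 0.00115, the authors' deposited table). Fibroblast, macrophage, white adipocyte, mesothelial and most epididymal markers were lower in the same comparison, as given above. Their part in the values of the readouts was not tested.

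**Figure D5:**
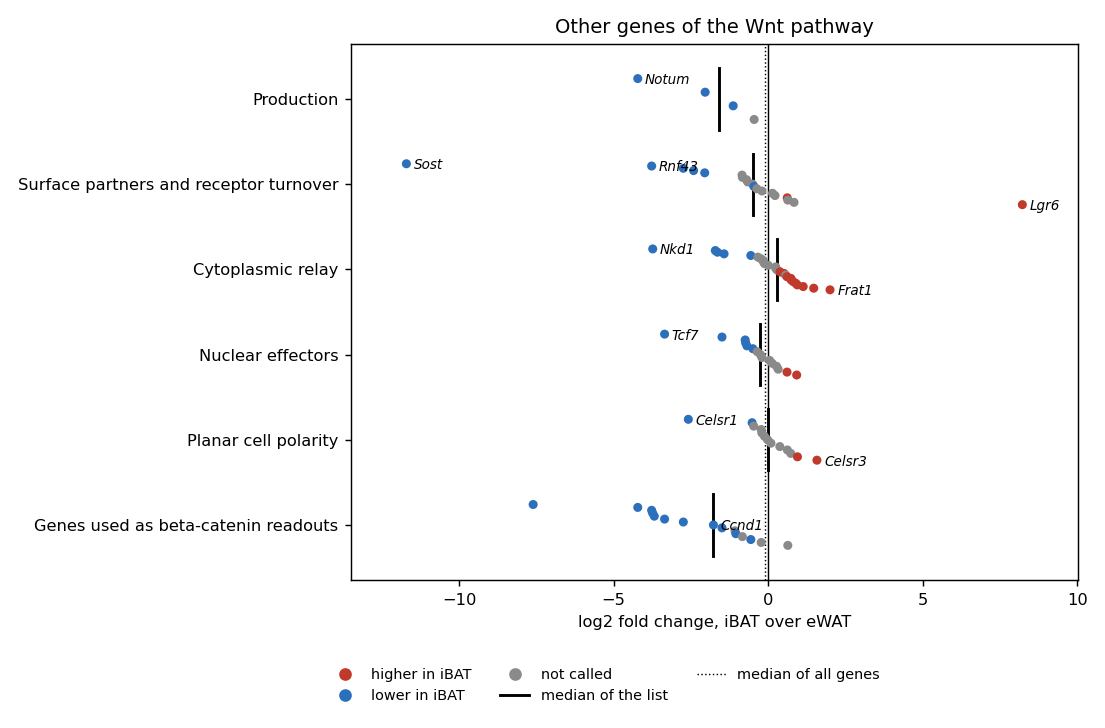
Log2 fold change of iBAT over eWAT on the horizontal axis for 6 lists of other Wnt pathway genes; each point is a gene, the thick bar is the median of its list and the dotted line the median of all genes. Lgr6 lies alone at the right at 8.23, and the readout genes have the lowest median, -1.77.

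In the RefSeq annotation of GRCm38.p6, 15 of the 41 genes overlap another annotated gene. Reads in the shared stretches may be split between genes. Of the 15, 8 were called, beside 48.0% of all genes. How many of all genes overlap another was not counted. Wnt2b shares 4524 bases with St7l, and Wnt5b shares 4219 bases with Fbxl14. Of the 41 genes, 7 had a base mean under 10 and 1 of these was called, Wnt9b. The other 6 lay between -0.71 and -0.16 on the log2 scale, with adjusted p-values from 0.289 to 0.804 (the authors' deposited table). Genes at or above the median base mean of the file, 342.8, numbered 11 of the 41. Of these, 6 were called after adjusting p again over the genes at or above that median, beside 58.2% of all such genes. The 6 were 1 gene higher in iBAT, beside 32.9% of all such genes, and 5 lower, beside 25.3%.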

How the data were processed

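Messenger RNA of 4 iBAT and 4 eWAT libraries was analysed through the authors' comparison. Per the labels' protocols, total RNA was made into strand-specific libraries. Kallisto 0.45.0, DESeq2, DESeq, mm10 and GRCm38 are named, with no role, per the submitters' processing notes. Which test gave the p-values, and the strand setting of the counting, are not given in the sources used. The base mean is a signal the authors deposited: normalized counts averaged over libraries. The log2 fold changes and their SEs are log2 values that the authors deposited. Deposited p-values and adjusted p-values were used as they stand; Benjamini-Hochberg adjustment here came within 2.4e-07 of the deposited adjusted values. Fold change over SE was smaller than the z value of the deposited p in 98.7% of genes, with a median ratio of 0.957 over all genes and 0.491 at base means under 10. Depth per library is unknown.

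IDs were matched to symbols for 18758 genes and not for 189. Calls used the deposited adjusted p under 0.05. Alternatives were p from fold change over SE, centring on the median, a base mean filter, a fold minimum of 1 and an adjusted p under 0.01. With centring, p was also computed from fold change over SE. The alternatives were computed in Python 3.11.15 with scipy 1.17.1, after a test on simulated data. Fits planned for library values were not run. Genes and lists were chosen with earlier results of these data known. Every Wnt-system gene was accounted for. Of each other pathway list, up to 4 called genes per direction with the smallest adjusted p and a log2 fold change of at least 1 in size were named, and of each marker list the 2 with the highest base mean. Muc16 was not analysed here. Promoter sequences are from RefSeq, build GRCm38.p6, and their strand was checked on 1625 overlapping pairs of opposite strand, all of which matched. The rule that at most 30 bases of a printed promoter lie inside the gene was added after the values were seen, and it left out Rspo4.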

Additional observations from a re-analysis of the deposited data

How the results depend on the processing

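No paired analysis was possible because the mRNA file holds no values per library, and for the same reason no library could be left out and no other count test or scaling could be run. Wnt2 and Wnt9b lost their call when p came from fold change over SE. Fold changes centred on the median were also given a p from fold change over SE. The loss of Wnt2 and Wnt9b under centring is therefore not a separate check. Fzd6, not called either way, stood at 0.027 when centred and at -0.07 as deposited. At an adjusted p under 0.01 Wnt2 and Wnt11 were lost, and with a log2 fold change of at least 1 in size Wnt11, Fzd1, Fzd7 and Fzd8. No other of the 41 genes changed its direction or its side of the threshold under these 4 alternatives.

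A base mean at or above the median of all genes left 11 genes and 6 calls (5 lower, 1 higher), as fewer genes were tested: 0 of 1 ligand, 2 of 4 Frizzled genes and 1 of 1 R-spondin. No Dkk gene and no Wif1 remained. Calls in the other lists were then 4 of 6 surface partners, 9 of 19 relay genes and 5 of 11 nuclear effectors. Polarity genes had 2 of 6 and readouts 4 of 5. Of all genes with a base mean at or above the median, 58.2% were called. A fold of at least 1 left 2 higher genes, 3 Frizzled genes, 7 relay genes (3 higher, 4 lower), 2 nuclear effectors and 2 polarity genes. Over all genes that fold left 11.0% higher and 19.5% lower. An adjusted p under 0.01 left 5 nuclear effectors. Polarity genes fell to 2 calls with p from fold change over SE. They also fell to 2 when centred, a setting that takes its p from fold change over SE as well.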
